A study of Sus scrofa with 18 samples.

Results

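The genes described here are the constitutive subunits of the proteasome and the ubiquitin-conjugating enzymes, measured in pig kidneys after transplantation. They were taken from the array's annotation as every gene whose symbol begins with PSMA to PSMG and a number, or with UBE2, with the interferon-inducible PSMB8, PSMB9, PSMB10, PSME1 and PSME2 left out. This gave 60 genes of 6765 named on the array, read by 82 probe sets, and each of the 16 genes with several probe sets is described by its brightest one over all 18 arrays. The rule uses names only, and it was set with earlier results of these data known. The 36 proteasome genes are PSMA1 to PSMA7, PSMB1 to PSMB7, 5 PSMC genes, 12 PSMD genes, PSME3, PSME4, PSMF1, PSMG1 and PSMG3. The 24 UBE2 genes are UBE2A, UBE2B, UBE2C, UBE2D2, UBE2D3, UBE2D4, UBE2E2, UBE2E3, UBE2F, UBE2G2, UBE2H, UBE2J2, UBE2K, UBE2L3, UBE2M, UBE2N, UBE2O, UBE2Q1, UBE2QL1, UBE2R2, UBE2T, UBE2V1, UBE2V2 and UBE2W.

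Cells mark a protein for destruction by attaching ubiquitin, which passes from an activating enzyme to a conjugating enzyme of the UBE2 family and, with the help of a ligase, to the protein. The proteasome takes up the marked protein. Its core is a barrel of PSMA and PSMB rings with the cutting sites inside, and its cap of PSMC ATPases and PSMD subunits recognises, unfolds and feeds in the protein. When protein damage outruns this machine, mammalian cells are known to raise the transcription of most of its subunits together.

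The study is about ischemia and reperfusion injury, the damage that follows when blood returns to an organ that was without it, and about carbon monoxide (CO), a gas that limits such injury in animal models. Kidney RNA was hybridised to 1 Affymetrix pig array per kidney. CO 24 h kidneys and untreated 24 h kidneys were transplanted and sampled at 24 h (4 arrays each, donors 5 to 8), CO 4 h kidneys and untreated 4 h kidneys were transplanted and sampled at 4 h (4 arrays each, donors 1 to 4), and naive kidneys were not transplanted (2 arrays). Each donor number has 1 CO and 1 untreated kidney. Breed, sex and age of the pigs are not given in the sources used here, nor is whether the donor, the graft or the recipient received the gas. The treatment entry of the CO arrays reads air, while their titles and sources name CO, which was followed. In whole kidney RNA, fewer cells of a type and less RNA per cell cannot be told apart.

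All values are log2 levels, and each array reads a single RNA sample, so the number of arrays limits the precision. Member values lay between 1.91 and 10.08, all above 1.607, the 95th percentile of 17 tag control probe sets that match no pig gene. As a check of the tissue, the proximal tubule genes AQP1 and MIOX read 10.80 and 11.41 in naive kidney 1 and 11.18 and 11.59 in naive kidney 2. They were lower in every 24 h kidney, down to 6.92 and 6.02 in the untreated kidney of donor 6. The adrenal gene STAR stayed between 0.98 and 1.54 in all 18 arrays. Array medians ran from 3.75 to 3.94. The untreated 4 h kidney of donor 1 stood apart before any member was compared: over all probe sets its mean correlation was 0.982 with the naive arrays and 0.956 with the other arrays of its own group, and its mean heat shock level relative to naive was -0.07, against 2.93 to 3.36 in the other 3. Member calls and counts that rest on it are also given without it. File names date the arrays to 4 batches. Batch 1 is made of donors 1, 3 and 4 (CO and untreated) with naive 1. Batch 2 is made of donor 2 (CO and untreated), donor 5 (untreated) and naive 2. Batch 4 is a single array, donor 6 with CO, and the remaining 6 arrays of 24 h kidneys make up batch 3.

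Most proteasome genes were higher than naive by 24 h. Tested with limma over 23999 probe sets, and counting a gene as risen or fallen where its Benjamini-Hochberg adjusted p was under 0.05, 26 of 36 proteasome genes rose in CO 24 h kidneys against naive kidneys and 0 fell, with a median log2 change of 0.82. Over all probe sets tested, 5.75% rose and 5.93% fell in that comparison (11.7% in all), with a median change of -0.02, and 708 of the 6765 named genes rose. In untreated 24 h kidneys 28 of 36 rose and 0 fell, with the same median of 0.82, beside 6.79% of all probe sets that rose and 7.77% that fell (14.6% in all). The UBE2 enzymes did not move as a family. In CO 24 h kidneys 1 of 24 rose and 0 fell (median 0.25), and in untreated 24 h kidneys 3 rose and 1 fell (median 0.24), shares close to those of all probe sets. These comparisons share both naive arrays, so their likeness is not independent evidence.

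At 4 h only part of the machine had moved. In CO 4 h kidneys 9 of 36 proteasome genes rose against naive kidneys and 0 fell (median 0.32), and of the UBE2 genes 4 rose and 4 fell (median 0.19). The share of all probe sets past the threshold there was 13.6%, with 6.84% higher and 6.72% lower. None of these 17 calls remained without naive 1 or without naive 2. In untreated 4 h kidneys 1 proteasome gene, PSME4, rose and 0 of 24 UBE2 genes changed, beside 1.50% of all probe sets. By limma's unadjusted p under 0.05, 12 of 36 proteasome and 8 of 24 UBE2 genes differed there. So did 4973 of all 23999 probe sets and 1950 of the 6765 named genes. Without the untreated kidney of donor 1 the count was 17 of 60, of which 11 were proteasome genes (10 higher, 1 lower) and 6 were UBE2 genes (3 higher, 3 lower), beside 13.9% of all probe sets (7.05% higher, 6.89% lower). The proteasome genes higher there were PSMA5, PSMC2, PSMD1, PSMD3, PSMD10, PSMD11, PSMD12, PSMD14, PSME4 and PSMG1, with PSMG3 lower, and the UBE2 genes were UBE2D2, UBE2D3 and UBE2H (higher) and UBE2D4, UBE2E3 and UBE2G2 (lower).

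Between the times, which share no array, most of the barrel rose. In CO 24 h kidneys 18 of 36 proteasome genes were higher than in CO 4 h kidneys and 1, PSME4, was lower (median 0.37), while of the UBE2 genes 5 were higher and 3 lower (median -0.01). All probe sets gave 17.6% past the threshold, 10.2% higher and 7.44% lower. In untreated 24 h kidneys 15 proteasome genes were higher than in untreated 4 h kidneys and 0 lower (median 0.51), and 3 UBE2 genes were higher and 1 lower (median 0.10), beside 9.72% of all probe sets (5.15% higher, 4.57% lower). The 15 genes of the untreated kidneys were all among the 18 of the CO kidneys, which is 15 of 15 of one list and 15 of 18 of the other. The other 3 were PSMC5, PSMD5 and PSMG3. Without the untreated 4 h kidney of donor 1 all 15 calls of the untreated kidneys remained, with changes that moved by at most 0.25, and PSMD5 (0.63, adjusted p = 0.0315) and PSMF1 (0.57, adjusted p = 0.0430) passed as well (median 0.45), while 2 UBE2 genes were higher and 3 lower (median 0.04), beside 12.2% of all probe sets. CO 24 h and CO 4 h kidneys come from different donors, as do the untreated ones.

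**Figure D1:**
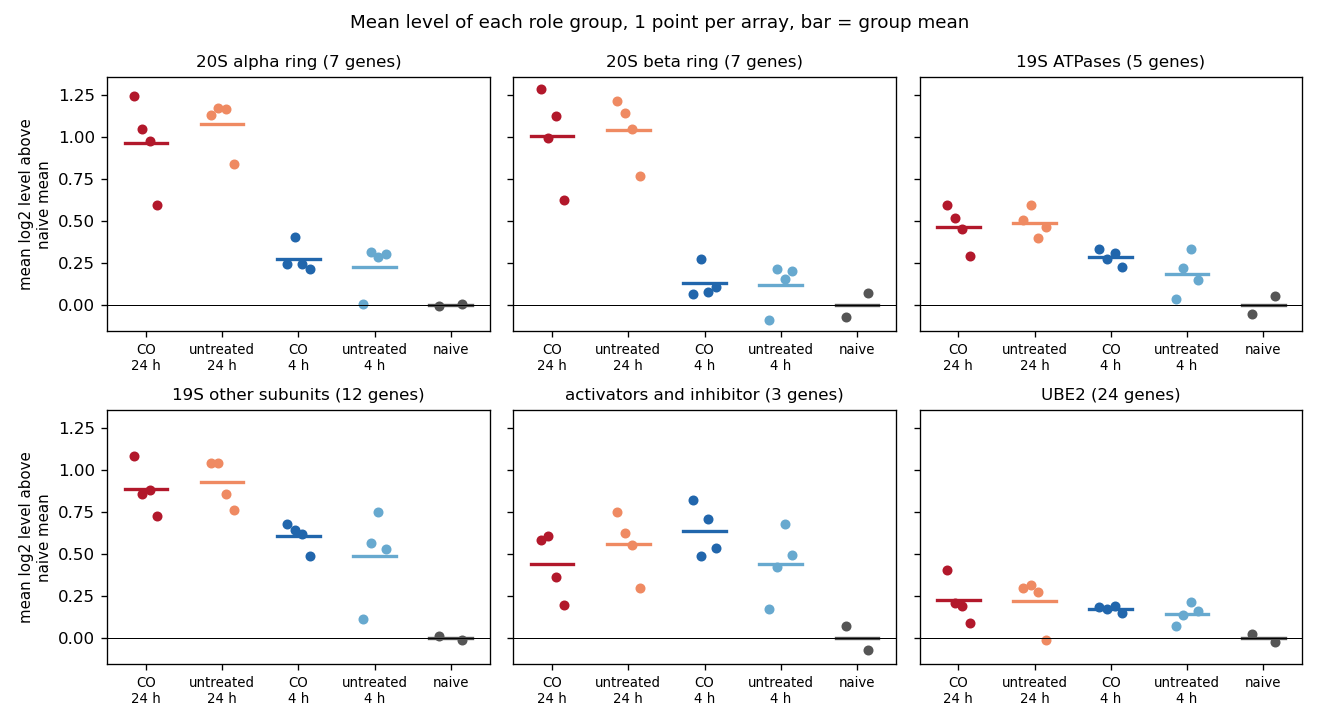
Mean log2 level of each role group above the naive mean (vertical axis) in CO 24 h, untreated 24 h, CO 4 h, untreated 4 h and naive kidneys, 1 point per array, with bars at the group means. Both rings of the core stood at 0.598 or more in every 24 h kidney and at 0.403 or less in every other kidney, and the UBE2 mean stayed between -0.022 and 0.407 in all kidneys.

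The outer rings of the core are built of the 7 PSMA proteins, which gate the entry to the barrel. Of these, 6 rose at 24 h against naive kidneys in both the CO and the untreated group, with PSMA7 the exception (0.42 ± 0.17 in CO and 0.45 ± 0.17 in untreated kidneys). PSMA1 read 8.42, 8.51, 8.29 and 7.85 in CO 24 h kidneys and 8.46, 8.57, 8.38 and 8.47 in untreated 24 h kidneys. It read 7.60, 7.77, 7.53 and 7.66 in CO 4 h kidneys, 7.13, 7.61, 7.65 and 7.61 in untreated 4 h kidneys, and 7.31 and 7.37 in naive kidneys. Every 24 h kidney was above every other kidney, and the untreated 4 h kidney of donor 1 was the only transplanted one below both naive kidneys. PSMA1 rose by 0.93 ± 0.18 (adjusted p = 0.00447) in CO 24 h kidneys and by 1.13 ± 0.18 (adjusted p = 0.000989) in untreated 24 h kidneys against naive.

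PSMA2 made the largest step of the outer ring between the times. Its levels were 9.95, 9.80, 9.63 and 9.18 in CO 24 h kidneys and 9.85, 9.91, 10.08 and 9.36 in untreated 24 h kidneys, and 8.55, 8.67, 8.47 and 8.56 in CO 4 h kidneys, 8.93, 8.75, 8.53 and 8.68 in untreated 4 h kidneys, and 8.69 and 8.62 in naive kidneys. The 4 h kidneys lay around the naive ones and the 24 h kidneys lay above all of them. The change of 24 h over 4 h was 1.08 ± 0.17 (adjusted p = 0.000759) with CO and 1.08 ± 0.17 (adjusted p = 0.00108) without. PSMA3, PSMA4 and PSMA6 rose likewise, by 0.72, 0.65 and 0.78 in CO 24 h over CO 4 h kidneys and by 0.94, 0.71 and 0.87 in untreated kidneys. PSMA7 joined them on this comparison (0.84 and 0.80), since its 4 h means lay below naive (-0.42 in CO 4 h and -0.35 in untreated 4 h kidneys, or -0.33 without donor 1), changes that did not pass.

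PSMA5 kept another time course. It read 8.69, 8.34, 8.17 and 7.88 in CO 24 h kidneys and 8.38, 8.58, 8.52 and 8.08 in untreated 24 h kidneys. At 4 h it was already 8.37, 7.86, 8.25 and 8.08 in CO 4 h kidneys, 6.98, 7.95, 8.28 and 8.08 in untreated 4 h kidneys, and 6.82 and 6.76 in naive kidneys. All transplanted kidneys other than the untreated 4 h kidney of donor 1 were at least 7.86, above both naive kidneys by more than the naive arrays differed. PSMA5 rose by 1.48 ± 0.29 (adjusted p = 0.00479) in CO 24 h, by 1.60 ± 0.29 (adjusted p = 0.00220) in untreated 24 h and by 1.35 ± 0.29 (adjusted p = 0.0104) in CO 4 h kidneys against naive. In untreated 4 h kidneys the change was 1.03 ± 0.29 (adjusted p = 0.0697), and without donor 1 it was 1.31 (adjusted p = 0.00122). It was the only core subunit not higher at 24 h than at 4 h (0.13 ± 0.24 with CO and 0.57 ± 0.24 without, or 0.29 without the untreated 4 h kidney of donor 1, none past the threshold).

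The inner rings hold 7 PSMB proteins, of which PSMB5, PSMB6 and PSMB7 carry the cutting sites of the constitutive proteasome. All 7 rose at 24 h in both groups against naive, and all 7 were higher at 24 h than at 4 h in both, while 0 of 7 passed at 4 h against naive in either (smallest adjusted p 0.189 in CO and 0.298 in untreated kidneys). PSMB5, the chymotrypsin-like subunit, read 8.66, 8.43, 8.38 and 7.96 in CO 24 h kidneys and 8.71, 8.47, 8.20 and 7.99 in untreated 24 h kidneys. It read 7.23, 7.51, 7.40 and 7.58 in CO 4 h kidneys, 7.49, 7.76, 7.48 and 7.68 in untreated 4 h kidneys, and 7.67 and 7.62 in naive kidneys. All 8 of the 24 h kidneys exceeded every naive and 4 h kidney. The rise over naive was 0.71 ± 0.20 (adjusted p = 0.0314) in CO 24 h and 0.70 ± 0.20 (adjusted p = 0.0299) in untreated 24 h kidneys, and over 4 h it was 0.92 ± 0.17 (adjusted p = 0.00171) with CO and 0.74 ± 0.17 (adjusted p = 0.00993) without. The calls over naive ended without the CO 24 h kidney of donor 5, 6 or 7, or without the untreated 24 h kidney of donor 5 or 6. Both calls ended without naive 1 or naive 2, after centring on array medians and in the fit limited to the compared groups.

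PSMB6, the caspase-like subunit, measured 9.27, 8.84, 9.04 and 8.68 in CO 24 h kidneys and 8.97, 8.95, 8.89 and 8.71 in untreated 24 h kidneys. In the remaining kidneys it measured 7.76, 8.05, 7.86 and 8.02 in CO 4 h kidneys, 7.64, 7.88, 7.95 and 8.07 in untreated 4 h kidneys, and 8.01 and 8.13 in naive kidneys. No 4 h kidney was above naive 2 (8.13), and all 24 h kidneys were above both naive kidneys. The step from 4 h was the largest of the 3 catalytic subunits in these fits, 1.04 ± 0.14 (adjusted p = 0.000302) in CO kidneys and 1.00 ± 0.14 (adjusted p = 0.000470) in untreated kidneys. PSMB7, the trypsin-like subunit, measured 9.30, 9.04, 9.15 and 8.72 in CO 24 h kidneys and 9.07, 9.17, 9.05 and 8.93 in untreated 24 h kidneys, and 8.26, 8.40, 8.35 and 8.16 in CO 4 h kidneys, 8.06, 8.38, 8.33 and 8.25 in untreated 4 h kidneys, and 8.12 and 8.29 in naive kidneys. Its groups separated at 24 h as those of PSMB6 did, with rises over naive of 0.85 ± 0.16 (adjusted p = 0.00331) in CO and 0.85 ± 0.16 (adjusted p = 0.00227) in untreated kidneys.

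The structural inner-ring subunits PSMB2, PSMB3 and PSMB4 had larger changes over naive at 24 h than the catalytic ones. PSMB1, also structural, had the smallest of the 7 (0.68 in CO 24 h and 0.64 in untreated 24 h kidneys). These differences were not tested. PSMB3 read 6.95, 6.13, 6.59 and 5.73 in CO 24 h kidneys and 6.76, 6.57, 6.43 and 5.83 in untreated 24 h kidneys. It read 5.39, 5.60, 5.11 and 5.32 in CO 4 h kidneys, 4.72, 5.47, 5.47 and 5.58 in untreated 4 h kidneys, and 4.50 and 4.90 in naive kidneys. The lowest 24 h kidney was still above the highest 4 h kidney. The rise over naive was 1.65 ± 0.32 (adjusted p = 0.00430) in CO 24 h kidneys, a fold of 3.13, and 1.69 ± 0.32 (adjusted p = 0.00260) in untreated 24 h kidneys, a fold of 3.24. Against CO 4 h kidneys the CO rise of 0.99 ± 0.26 no longer passed without the CO 24 h kidney of donor 5.

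PSMB2 read 9.49, 9.54, 9.58 and 8.98 in CO 24 h kidneys and 9.86, 9.66, 9.62 and 9.24 in untreated 24 h kidneys, and 8.37, 8.79, 8.45 and 8.24 in CO 4 h kidneys, 8.32, 8.57, 8.48 and 8.42 in untreated 4 h kidneys, and 8.18 and 8.33 in naive kidneys. Both 24 h groups lay above all other kidneys, with the donor 8 kidney lowest in each. PSMB2 rose over naive by 1.14 ± 0.20 (adjusted p = 0.00262) in CO and 1.34 ± 0.20 (adjusted p = 0.000625) in untreated kidneys, and over 4 h by 0.94 ± 0.16 and 1.15 ± 0.16. PSMB4 read 9.80, 9.57, 9.82 and 9.31 in CO 24 h kidneys and 9.76, 9.80, 9.93 and 9.59 in untreated 24 h kidneys, and 8.91, 8.78, 8.75 and 8.80 in CO 4 h kidneys, 8.49, 8.92, 8.79 and 8.75 in untreated 4 h kidneys, and 8.39 and 8.58 in naive kidneys. Here too no 24 h kidney overlapped a 4 h or naive kidney, and the rises over naive were 1.14 ± 0.16 (adjusted p = 0.000776) and 1.28 ± 0.16 (adjusted p = 0.000225). PSMB1 rose by 0.68 in CO 24 h and 0.64 in untreated 24 h kidneys and stood at 0.01 in CO 4 h and -0.03 in untreated 4 h kidneys (-0.05 without donor 1), changes that did not pass.

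**Figure D2:**
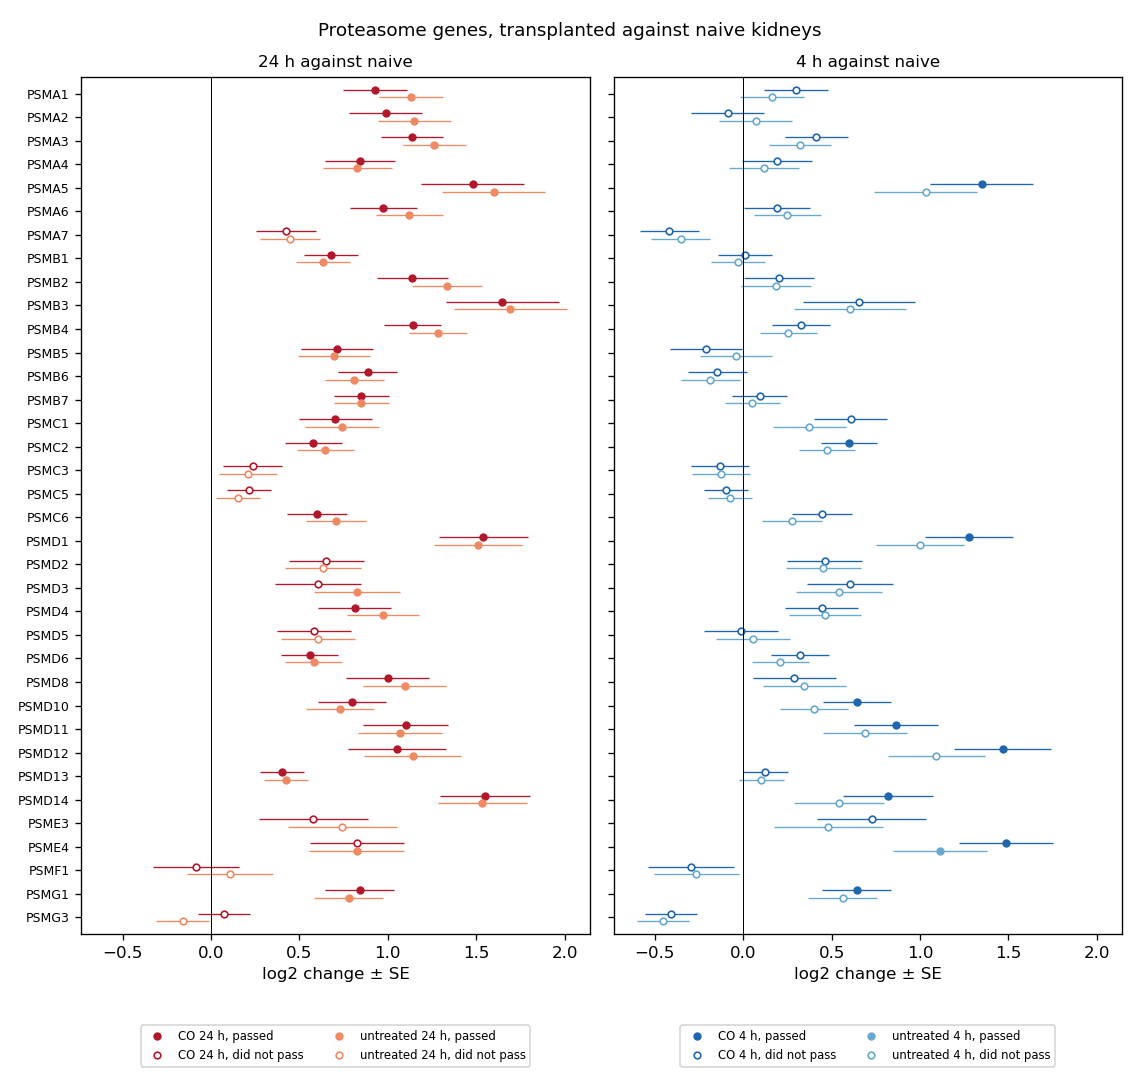
Log2 change of the 36 proteasome genes against naive kidneys (horizontal axis, points with standard errors) at 24 h (left panel) and 4 h (right panel), CO kidneys in the darker colour and untreated kidneys in the lighter one, filled where the limma adjusted p was under 0.05. At 24 h 26 points are filled for CO and 28 for untreated kidneys. At 4 h 9 are filled for CO kidneys, of which 6 are PSMC or PSMD genes, and 1 for untreated kidneys, PSME4.

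The cap splits into a base of PSMC ATPases, which unfold the protein, and the PSMD subunits. Of the 5 ATPases measured, PSMC1, PSMC2 and PSMC6 rose at 24 h, by 0.70, 0.58 and 0.60 in CO and by 0.74, 0.65 and 0.71 in untreated kidneys against naive. PSMC3 (0.24 ± 0.17 and 0.21 ± 0.17) and PSMC5 (0.21 ± 0.12 and 0.15 ± 0.12) did not pass, although PSMC5 was higher in CO 24 h than in CO 4 h kidneys (0.31 ± 0.10, adjusted p = 0.0443), a call that ended when any of 6 arrays of that comparison was left out. The PSMC1 call in CO kidneys ended without donor 5, 6 or 7 and in untreated kidneys without donor 6, and the CO calls of PSMC2 and PSMC6 ended without donor 5 or 7. PSMC2 also rose in CO 4 h kidneys (0.60 ± 0.16, adjusted p = 0.0241), not without donor 1 or 3. The other 2 probe sets of PSMC2 did not follow: in CO 4 h kidneys they stood at -0.05 and -0.01, and in CO 24 h kidneys at 0.11 and 0.23 and in untreated 24 h kidneys at -0.05 and 0.05 against naive, with no call, so the PSMC2 result rests on 1 probe set of 3.

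Among the 12 PSMD genes, 9 rose in CO 24 h and 10 in untreated 24 h kidneys, and 5 had already risen in CO 4 h kidneys: PSMD1, PSMD10, PSMD11, PSMD12 and PSMD14. All 5 calls ended when naive 1 or naive 2 was left out. PSMD14, the cap enzyme that clips ubiquitin off the incoming protein, read 8.75, 8.23, 8.25 and 8.20 in CO 24 h kidneys and 8.51, 8.36, 8.32 and 8.17 in untreated 24 h kidneys. It read 7.60, 7.88, 7.58 and 7.42 in CO 4 h kidneys, 6.60, 7.51, 7.52 and 7.76 in untreated 4 h kidneys, and 6.65 and 6.95 in naive kidneys. The values rose in steps, with naive and the donor 1 untreated kidney lowest, the other 4 h kidneys between, and all 24 h kidneys highest. PSMD14 rose over naive by 1.55 ± 0.25 (adjusted p = 0.00183) in CO 24 h, 1.54 ± 0.25 (adjusted p = 0.00119) in untreated 24 h and 0.82 ± 0.25 (adjusted p = 0.0433) in CO 4 h kidneys. It was also higher at 24 h than at 4 h, by 0.73 ± 0.21 (adjusted p = 0.0228) with CO and 0.99 ± 0.21 (adjusted p = 0.00647) without. The CO 24 h over CO 4 h call ended without the CO 24 h kidney of donor 5 or the CO 4 h kidney of donor 1, 3 or 4, and the CO 4 h call over naive ended without donor 1, 2 or 3.

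PSMD1, the large scaffold subunit of the base, read 8.38, 8.08, 8.21 and 8.19 in CO 24 h kidneys and 8.20, 8.32, 8.13 and 8.10 in untreated 24 h kidneys. It read 8.17, 8.00, 8.07 and 7.57 in CO 4 h kidneys, 6.94, 7.71, 8.22 and 7.83 in untreated 4 h kidneys, and 6.63 and 6.72 in naive kidneys. Of the 4 h kidneys, donor 1 with CO (8.17) and donor 3 untreated (8.22) lay within the range of the 24 h kidneys, and the remaining 6 lay below it. PSMD1 rose over naive by 1.54 ± 0.25 (adjusted p = 0.00175) in CO 24 h, 1.51 ± 0.25 (adjusted p = 0.00119) in untreated 24 h and 1.28 ± 0.25 (adjusted p = 0.00731) in CO 4 h kidneys, and its second probe set rose too (1.33 in CO 24 h and 1.05 in CO 4 h kidneys). Between the times it moved by 0.26 ± 0.20 with CO and 0.51 ± 0.20 without, neither past the threshold.

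PSMD12, a lid subunit, was the PSMD gene with the largest CO 4 h change. It read 7.67, 7.21, 7.24 and 7.27 in CO 24 h kidneys and 7.47, 7.71, 7.39 and 7.18 in untreated 24 h kidneys. It read 7.87, 7.55, 7.86 and 7.78 in CO 4 h kidneys, 6.55, 7.53, 7.94 and 7.53 in untreated 4 h kidneys, and 6.45 and 6.14 in naive kidneys. In donors 2 to 4 the 4 h kidneys were as high as, or higher than, most 24 h kidneys, while the untreated kidney of donor 1 was at 6.55, near the naive kidneys. The change over naive was 1.47 ± 0.28 (adjusted p = 0.00646) in CO 4 h, 1.05 ± 0.28 (adjusted p = 0.0216) in CO 24 h and 1.14 ± 0.28 (adjusted p = 0.0115) in untreated 24 h kidneys. The CO 24 h call ended without donor 5. In untreated 4 h kidneys the change was 1.09 ± 0.28 (adjusted p = 0.0541), and without donor 1 it was 1.37 (adjusted p = 0.000389).

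PSMD11, another lid subunit and in human cells a limiting one for assembly, read 8.74, 8.92, 8.93 and 8.94 in CO 24 h kidneys and 8.88, 9.10, 8.79 and 8.63 in untreated 24 h kidneys. It read 8.99, 8.62, 8.72 and 8.25 in CO 4 h kidneys, 8.06, 8.77, 8.93 and 8.12 in untreated 4 h kidneys, and 7.70 and 7.86 in naive kidneys. The 4 h groups spread widely and overlapped the 24 h groups. PSMD11 rose by 1.10 ± 0.24 (adjusted p = 0.00795) in CO 24 h, 1.07 ± 0.24 (adjusted p = 0.00723) in untreated 24 h and 0.86 ± 0.24 (adjusted p = 0.0271) in CO 4 h kidneys against naive. Its other 2 probe sets gave 0.76 and 0.85 in CO 4 h and 1.01 and 0.66 in CO 24 h kidneys, with the call in 1 of 2 each time. The CO 4 h call of PSMD11 ended without donor 1 or 3.

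PSMD4, a receptor for ubiquitin chains, read 7.97, 7.33, 7.98 and 7.47 in CO 24 h kidneys and 7.97, 7.72, 7.77 and 7.93 in untreated 24 h kidneys, and 7.33, 7.54, 7.16 and 7.26 in CO 4 h kidneys, 7.38, 7.35, 7.30 and 7.32 in untreated 4 h kidneys, and 7.22 and 6.53 in naive kidneys. The naive kidneys differed from each other by more than the arrays within any other group, and every 24 h kidney was above both. The rise was 0.81 ± 0.21 (adjusted p = 0.0177) in CO 24 h and 0.97 ± 0.21 (adjusted p = 0.00527) in untreated 24 h kidneys, with the CO call lost without donor 7. PSMD8 (a lid subunit), PSMD6 and PSMD13 rose at 24 h as well, by 1.00, 0.56 and 0.40 in CO and 1.09, 0.58 and 0.42 in untreated kidneys, and only PSMD8 of these was higher at 24 h than at 4 h (0.71 with CO and 0.75 without). The PSMD8 calls between the times ended without the CO 24 h kidney of donor 5, or without the untreated 24 h kidney of donor 5 or 6. The PSMD13 call ended without any 1 of the CO 24 h kidneys, the PSMD6 call without the CO 24 h kidney of donor 5 or 6, and in untreated kidneys they ended without donor 6, that of PSMD13 also without donor 5. PSMD3 rose in untreated 24 h kidneys (0.83 ± 0.24, adjusted p = 0.0316) and stood at 0.61 ± 0.24 (adjusted p = 0.121) in CO 24 h kidneys, and its untreated call ended without donor 5 or 6. PSMD2, which binds shuttle proteins, did not pass at 24 h (0.65 ± 0.21 with CO and 0.63 ± 0.21 without).

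Of the chaperones that assemble the cap's base, PSMD10 rose in CO 24 h (0.80), untreated 24 h (0.73) and CO 4 h kidneys (0.64), there not without donor 1, 3 or 4. PSMD5, which is known to hold the base back from assembly, did not pass against naive (0.58 ± 0.21 in CO 24 h and 0.61 ± 0.21 in untreated 24 h kidneys) and was higher in CO 24 h than CO 4 h kidneys (0.60 ± 0.17, adjusted p = 0.0238), a call lost without the CO 24 h kidney of donor 5 or the CO 4 h kidney of donor 1 or 3. PSMG1, a member of a chaperone pair for the core's outer ring, rose in CO 24 h (0.84 ± 0.20, adjusted p = 0.0116), untreated 24 h (0.78 ± 0.20, adjusted p = 0.0139) and CO 4 h kidneys (0.64 ± 0.20, adjusted p = 0.0395), there not without donor 1 or 3.

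PSMG3, of the other chaperone pair, stood below naive at 4 h. It read 6.11, 5.64, 5.73 and 5.84 in CO 24 h kidneys and 5.61, 5.59, 5.64 and 5.54 in untreated 24 h kidneys. It read 5.43, 5.35, 5.29 and 5.32 in CO 4 h kidneys, 5.51, 5.24, 5.10 and 5.36 in untreated 4 h kidneys, and 5.65 and 5.87 in naive kidneys. All 4 h kidneys lay below both naive kidneys, but the changes of -0.41 ± 0.15 (adjusted p = 0.0751) in the CO group and -0.45 ± 0.15 (adjusted p = 0.100) in the untreated group did not pass. Without the donor 1 kidney the untreated change was -0.53 (adjusted p = 0.0289). The CO 24 h kidneys were above the CO 4 h kidneys (0.48 ± 0.12, adjusted p = 0.0119).

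PSME4 (PA200), a cap made of a single protein that can take the place of the usual one, was the only member that passed in untreated 4 h kidneys. It read 6.07, 5.84, 5.89 and 5.84 in CO 24 h kidneys and 6.03, 6.25, 6.09 and 5.26 in untreated 24 h kidneys. It read 6.85, 6.59, 6.59 and 6.26 in CO 4 h kidneys, 5.63, 6.39, 6.61 and 6.16 in untreated 4 h kidneys, and 5.16 and 5.00 in naive kidneys. All transplanted kidneys were above both naive kidneys, and the CO 4 h kidneys were above all 24 h kidneys. PSME4 rose over naive by 1.49 ± 0.27 (adjusted p = 0.00558) in CO 4 h and 1.11 ± 0.27 (adjusted p = 0.0487) in untreated 4 h kidneys. The untreated call held without the donor 1 kidney (1.30, adjusted p = 0.00259) but ended without any other array of that comparison, and with donor as a replicate block it narrowly missed the threshold (adjusted p = 0.0523). At 24 h the change was 0.82 ± 0.27 (adjusted p = 0.0553) with CO and 0.82 ± 0.27 (adjusted p = 0.0484) without, so it passed in the untreated group alone. That call missed the threshold with donor as a replicate block (adjusted p = 0.0512) and ended without the untreated 24 h kidney of donor 5, 6 or 7, and the difference between those groups (0.00 ± 0.22) did not pass. CO 24 h kidneys were lower than CO 4 h kidneys (-0.66 ± 0.22, adjusted p = 0.0451), a call that held when the CO 4 h kidney of donor 4 was left out and ended when any of the other 7 was.

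PSME3 (PA28 gamma), a nuclear activator that works without ATP, read 6.21, 5.83, 5.65 and 5.51 in CO 24 h kidneys and 6.39, 5.82, 5.75 and 5.89 in untreated 24 h kidneys. It read 6.33, 5.54, 6.15 and 5.78 in CO 4 h kidneys, 4.87, 5.89, 6.09 and 5.97 in untreated 4 h kidneys, and 5.27 and 5.17 in naive kidneys. The transplanted kidneys overlapped widely among groups and all but the donor 1 untreated kidney were above naive. No comparison passed for PSME3, with changes over naive of 0.58 ± 0.31 in CO 24 h, 0.74 ± 0.31 in untreated 24 h, 0.73 ± 0.31 in CO 4 h and 0.48 ± 0.31 in untreated 4 h kidneys (0.76 without donor 1, which did not pass). PSMF1 (PI31), described as an inhibitor of the isolated core, read 5.52, 6.20, 5.60 and 5.30 in CO 24 h kidneys and 5.88, 5.85, 5.88 and 5.80 in untreated 24 h kidneys, and 5.34, 5.39, 5.44 and 5.62 in CO 4 h kidneys, 6.08, 5.04, 5.39 and 5.41 in untreated 4 h kidneys, and 5.83 and 5.66 in naive kidneys. Its groups overlapped and no comparison passed (largest change over naive -0.30 ± 0.24, in CO 4 h kidneys), except that without the donor 1 kidney the untreated 24 h kidneys were higher than the untreated 4 h kidneys, as given above.

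**Figure D3:**
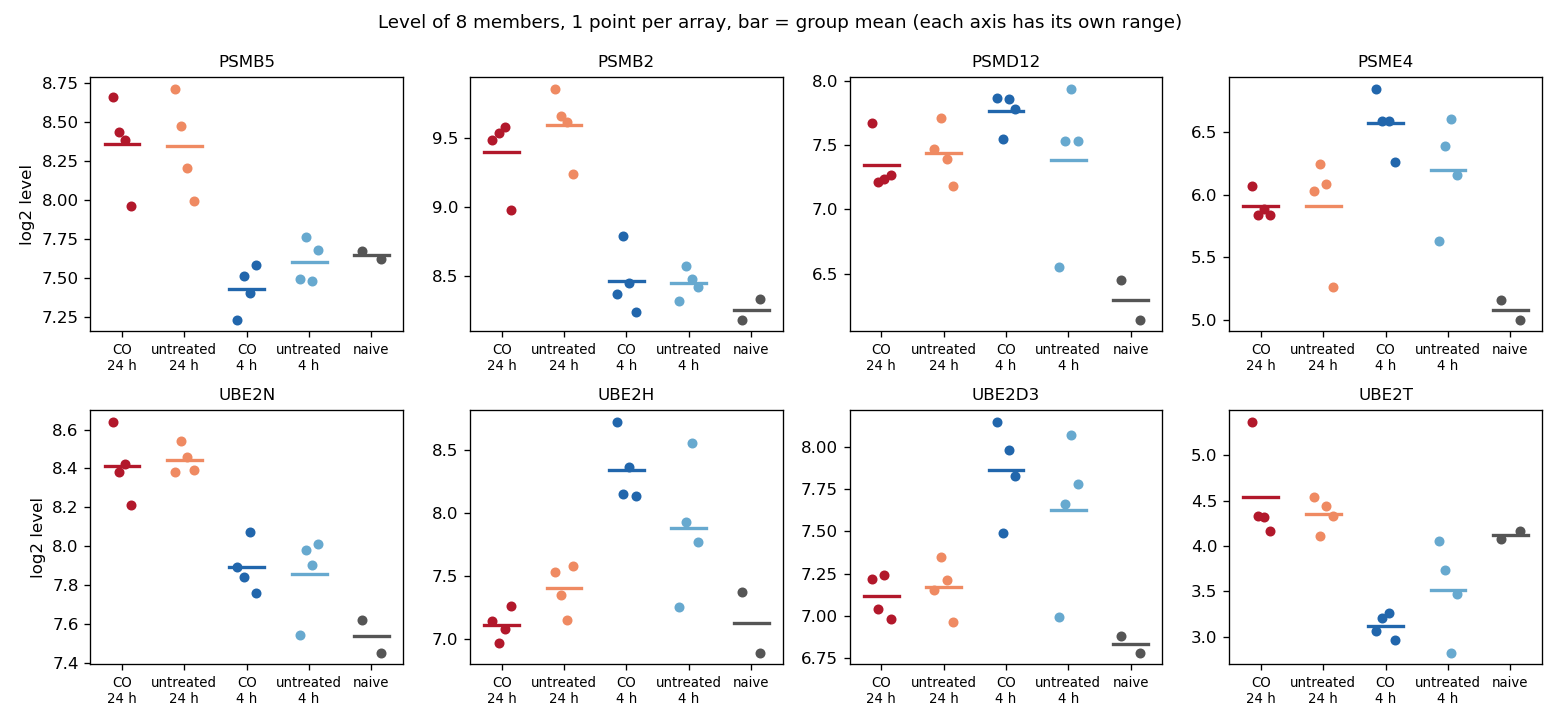
Log2 level (vertical axis, its range set for each gene) of 4 proteasome and 4 UBE2 genes in CO 24 h, untreated 24 h, CO 4 h, untreated 4 h and naive kidneys, 1 point per array, with bars at the group means. In PSMB5, PSMB2 and UBE2N every 24 h kidney was above every other kidney, PSMD12, PSME4, UBE2H and UBE2D3 had their highest group mean in CO 4 h kidneys, and UBE2T had its lowest group mean there.

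The UBE2 enzymes went separate ways. UBE2N, which builds ubiquitin chains used in signalling and DNA repair rather than degradation, was the only one that rose over naive in both 24 h groups. It read 8.64, 8.38, 8.42 and 8.21 in CO 24 h kidneys and 8.38, 8.54, 8.46 and 8.39 in untreated 24 h kidneys. It read 7.89, 7.84, 8.07 and 7.76 in CO 4 h kidneys, 7.54, 7.98, 7.90 and 8.01 in untreated 4 h kidneys, and 7.62 and 7.45 in naive kidneys. The 24 h kidneys were above all others. UBE2N rose by 0.88 ± 0.16 (adjusted p = 0.00274) in CO 24 h and 0.91 ± 0.16 (adjusted p = 0.00144) in untreated 24 h kidneys against naive, and by 0.52 ± 0.13 (adjusted p = 0.0100) and 0.59 ± 0.13 (adjusted p = 0.00826) over 4 h kidneys.

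UBE2V1 and UBE2V2 are inactive partners that pair with UBE2N. UBE2V1 read 8.18, 8.13, 8.50 and 8.14 in CO 24 h kidneys and 8.36, 8.44, 8.53 and 7.82 in untreated 24 h kidneys. It read 7.76, 7.71, 7.87 and 7.48 in CO 4 h kidneys, 7.69, 7.84, 7.89 and 7.60 in untreated 4 h kidneys, and 7.73 and 7.89 in naive kidneys. It was higher at 24 h than at 4 h by 0.53 ± 0.15 (adjusted p = 0.0237) with CO and 0.53 ± 0.15 (adjusted p = 0.0364) without, where the untreated kidney of donor 8 (7.82) overlapped the 4 h kidneys. The untreated call ended when any 1 of the arrays was left out except the 24 h kidney of donor 8 (0.51, adjusted p = 0.0610 without the 4 h kidney of donor 1), and the CO call ended without the CO 24 h kidney of donor 7 or the CO 4 h kidney of donor 4. The other 2 probe sets of UBE2V1 stood at -0.09 and -0.10 in CO 24 h against CO 4 h kidneys. UBE2V2 did not pass in any comparison (0.53 ± 0.17 in CO 24 h kidneys over naive).

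The UBE2D enzymes work with many ligases and have known roles in clearing damaged and short-lived proteins. UBE2D2 read 9.38, 9.39, 9.22 and 8.95 in CO 24 h kidneys and 9.41, 9.64, 9.36 and 9.32 in untreated 24 h kidneys. It read 9.82, 9.40, 9.78 and 9.52 in CO 4 h kidneys, 8.58, 9.55, 9.74 and 9.79 in untreated 4 h kidneys, and 8.60 and 8.33 in naive kidneys. All transplanted kidneys except the untreated 4 h kidney of donor 1 were well above naive. UBE2D2 rose by 1.17 ± 0.26 (adjusted p = 0.0121) in CO 4 h and 0.97 ± 0.26 (adjusted p = 0.0209) in untreated 24 h kidneys, and stood at 0.77 ± 0.26 (adjusted p = 0.0687) in CO 24 h kidneys. In untreated 4 h kidneys it was 0.95 ± 0.26 (adjusted p = 0.0663), and without donor 1 1.23 (adjusted p = 0.000397). The untreated 24 h call ended without donor 6. Its other 2 probe sets gave 1.11, which passed, and 0.53 in CO 4 h kidneys, and 0.49 and 0.53, with no call, in untreated 24 h kidneys.

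UBE2D3 read 7.22, 7.04, 7.24 and 6.98 in CO 24 h kidneys and 7.15, 7.35, 7.21 and 6.96 in untreated 24 h kidneys. It read 8.15, 7.49, 7.98 and 7.83 in CO 4 h kidneys, 6.99, 7.66, 8.07 and 7.78 in untreated 4 h kidneys, and 6.88 and 6.78 in naive kidneys. The CO 4 h kidneys were above all 24 h and naive kidneys, and so were 3 of the 4 untreated 4 h kidneys. UBE2D3 rose by 1.04 ± 0.24 (adjusted p = 0.0125) in CO 4 h kidneys over naive and was lower in CO 24 h than in CO 4 h kidneys (-0.75 ± 0.19, adjusted p = 0.0142), a call lost without the CO 4 h kidney of donor 1. In untreated kidneys the 24 h minus 4 h change was -0.46 ± 0.19 (adjusted p = 0.153), and without the 4 h kidney of donor 1 it was -0.68 (adjusted p = 0.0119). Its probe set is one that the array's naming marks as shared between transcripts, so a near-identical relative may contribute.

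UBE2D4, the least studied of the group, fell in CO 4 h kidneys. It read 4.15, 4.19, 3.81 and 3.80 in CO 24 h kidneys and 4.15, 4.00, 4.09 and 3.76 in untreated 24 h kidneys. It read 3.22, 3.85, 3.34 and 3.67 in CO 4 h kidneys, 3.87, 3.54, 3.46 and 3.53 in untreated 4 h kidneys, and 3.98 and 4.48 in naive kidneys. All 8 of the 4 h kidneys were below both naive kidneys, and the CO 4 h change was -0.71 ± 0.20 (adjusted p = 0.0323), a call lost without donor 1 or 3. Without donor 1 the untreated 4 h change was -0.72 (adjusted p = 0.0314). The other 2 probe sets gave -0.38 and -0.07 and did not pass.

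UBE2H, which in mammals works with the CTLH ligase and is abundant in maturing red cells, had the largest CO 4 h rise of the family. It read 7.14, 6.97, 7.08 and 7.26 in CO 24 h kidneys and 7.53, 7.35, 7.15 and 7.58 in untreated 24 h kidneys. It read 8.72, 8.15, 8.36 and 8.13 in CO 4 h kidneys, 7.25, 7.93, 8.55 and 7.77 in untreated 4 h kidneys, and 7.37 and 6.89 in naive kidneys. The CO 4 h kidneys were above every 24 h and naive kidney, and in the untreated 4 h group donors 2 to 4 were too. UBE2H rose by 1.21 ± 0.27 (adjusted p = 0.0116) in CO 4 h kidneys over naive, a fold of 2.31, and was lower in CO 24 h than CO 4 h kidneys (-1.22 ± 0.22, adjusted p = 0.00169). In untreated kidneys the 24 h minus 4 h change was -0.47 ± 0.22 (adjusted p = 0.208), and without the 4 h kidney of donor 1 it was -0.68 (adjusted p = 0.0352). At 24 h it stood at -0.02 ± 0.27 with CO and 0.27 ± 0.27 without. Its second probe set gave 0.72 over naive in CO 4 h kidneys, with no call, and -1.26, which passed, between the CO groups. The 4 red cell markers measured had median changes of 0.28 in CO 4 h and 0.51 in untreated 4 h kidneys, with 0 past the threshold (1 of 4, median 0.77, in untreated 4 h kidneys without donor 1), and their part in the UBE2H result was not tested.

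UBE2B, a partner of the RAD18 and RNF20 ligases in DNA repair and histone marking, read 7.83, 7.26, 7.46 and 7.35 in CO 24 h kidneys and 7.38, 7.62, 7.44 and 8.00 in untreated 24 h kidneys. It read 8.29, 8.32, 8.18 and 8.48 in CO 4 h kidneys, 7.93, 7.81, 7.97 and 8.18 in untreated 4 h kidneys, and 8.21 and 7.42 in naive kidneys. The naive kidneys lay far apart and no change over naive passed, but all CO 24 h kidneys were below all CO 4 h kidneys (-0.84 ± 0.18, adjusted p = 0.00486). UBE2QL1, a UBE2Q-like protein, read 2.95, 3.08, 2.66 and 2.86 in CO 24 h kidneys and 2.47, 2.67, 2.57 and 2.85 in untreated 24 h kidneys, and 3.54, 2.97, 2.99 and 3.53 in CO 4 h kidneys, 3.34, 2.76, 3.23 and 3.08 in untreated 4 h kidneys, and 2.52 and 2.52 in naive kidneys. Its CO 4 h kidneys were all above naive (0.74 ± 0.20, adjusted p = 0.0257), a call lost without donor 1, at levels low on this array's scale.

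Among the enzymes that fell in CO 4 h kidneys, UBE2G2 serves the destruction of misfolded proteins of the endoplasmic reticulum. It read 6.17, 5.99, 5.86 and 6.09 in CO 24 h kidneys and 6.10, 6.05, 5.91 and 5.59 in untreated 24 h kidneys. It read 5.69, 5.87, 5.89 and 5.83 in CO 4 h kidneys, 6.19, 5.64, 5.96 and 5.94 in untreated 4 h kidneys, and 6.42 and 6.42 in naive kidneys. All 16 transplanted kidneys were below both naive kidneys. UBE2G2 fell in CO 4 h (-0.60 ± 0.17, adjusted p = 0.0274) and in untreated 24 h kidneys (-0.51 ± 0.17, adjusted p = 0.0497), and stood at -0.39 ± 0.17 (adjusted p = 0.142) in CO 24 h and -0.49 ± 0.17 (adjusted p = 0.114) in untreated 4 h kidneys. Without donor 1 the untreated 4 h change was -0.57 (adjusted p = 0.0315), and the CO 4 h call ended without the CO kidney of donor 1. The untreated 24 h call missed the threshold with donor as a replicate block (adjusted p = 0.0529) and ended without donor 6, 7 or 8, with an intensity trend, without dim probe sets and in the fit limited to the compared groups.

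UBE2E3 read 8.23, 7.76, 8.02 and 8.24 in CO 24 h kidneys and 7.90, 7.91, 8.09 and 7.78 in untreated 24 h kidneys. It read 7.38, 7.75, 7.67 and 7.90 in CO 4 h kidneys, 8.17, 7.60, 7.60 and 7.88 in untreated 4 h kidneys, and 8.45 and 8.22 in naive kidneys. The CO 4 h kidneys were all below naive, with a change of -0.66 ± 0.19 (adjusted p = 0.0330) that did not pass without donor 1 or 3, and the other 2 probe sets gave -0.57 and -0.47 with no call. Its brightest probe set is of the shared kind described for UBE2D3.

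UBE2T, the conjugating enzyme of the Fanconi anaemia DNA repair pathway, had the largest fall in CO 4 h kidneys. It read 5.37, 4.33, 4.32 and 4.16 in CO 24 h kidneys and 4.54, 4.11, 4.44 and 4.33 in untreated 24 h kidneys. It read 3.06, 3.20, 3.26 and 2.96 in CO 4 h kidneys, 4.05, 3.73, 2.82 and 3.47 in untreated 4 h kidneys, and 4.08 and 4.16 in naive kidneys. All CO 4 h kidneys were below naive (-1.0 ± 0.31, adjusted p = 0.0431), a call that ended without any 1 of the 6 arrays, and the CO 24 h kidneys, with donor 5 far above the rest, were above them (1.42 ± 0.25, adjusted p = 0.00162). The untreated 24 h kidneys were above the untreated 4 h kidneys (0.84 ± 0.25, adjusted p = 0.0474), a call that ended without any 1 of the arrays other than the 4 h kidney of donor 1. The second probe set of UBE2T gave -0.21 in CO 4 h kidneys over naive and 0.39 between the CO groups, neither past the threshold.

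UBE2C, which serves the anaphase-promoting complex in mitosis, read 5.60, 4.01, 3.73 and 2.26 in CO 24 h kidneys and 4.61, 3.85, 4.75 and 2.85 in untreated 24 h kidneys. It read 2.51, 2.44, 1.91 and 2.18 in CO 4 h kidneys, 3.45, 3.33, 2.30 and 2.03 in untreated 4 h kidneys, and 2.51 and 2.08 in naive kidneys. The 24 h kidneys spread over more than 3 log2 units and the CO kidney of donor 8 overlapped the CO 4 h kidneys. UBE2C was higher in CO 24 h than CO 4 h kidneys by 1.64 ± 0.55 (adjusted p = 0.0494), a call that ended when any array was left out other than the CO 24 h kidney of donor 8, with values of 1.08 to 2.19. Its change over naive, 1.61 ± 0.67 (adjusted p = 0.140) in CO 24 h and 1.72 ± 0.67 (adjusted p = 0.102) in untreated 24 h kidneys, did not pass. Its second probe set stood at 0.04 between the CO groups. Of 18 cell cycle genes measured, 8 rose in CO 24 h (median 1.41) and 7 in untreated 24 h kidneys (median 1.28), MCM2, RRM2 and TYMS among them.

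UBE2M and UBE2F load the ubiquitin-like protein NEDD8 onto cullin ligases. UBE2M read 6.84, 6.85, 6.77 and 6.52 in CO 24 h kidneys and 7.38, 6.73, 6.64 and 6.20 in untreated 24 h kidneys. It read 5.84, 6.31, 6.16 and 6.26 in CO 4 h kidneys, 6.39, 6.38, 6.27 and 6.34 in untreated 4 h kidneys, and 6.26 and 6.47 in naive kidneys. The CO 24 h kidneys were all above the CO 4 h kidneys (0.60 ± 0.19, adjusted p = 0.0357), a call lost without the CO 24 h kidney of donor 5, 6 or 7 or the CO 4 h kidney of donor 1, 3 or 4. UBE2F did not pass (0.55 ± 0.21 in CO 4 h kidneys over naive).

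UBE2K builds the chains that send proteins to the proteasome. It read 6.62, 6.20, 6.20 and 6.18 in CO 24 h kidneys and 6.60, 6.60, 6.32 and 6.48 in untreated 24 h kidneys. It read 6.54, 6.33, 6.35 and 6.49 in CO 4 h kidneys, 6.20, 6.43, 6.34 and 6.62 in untreated 4 h kidneys, and 6.05 and 5.96 in naive kidneys. All transplanted kidneys were above naive, and the change passed in untreated 24 h kidneys (0.49 ± 0.16, adjusted p = 0.0446) but not in CO 24 h kidneys (0.29 ± 0.16, adjusted p = 0.258). The untreated call ended without donor 5 or 6 and without naive 1 or naive 2. It was also lost with an intensity trend, after centring on array medians and in the fit limited to the compared groups. UBE2R2, which extends chains on cullin substrates, read 4.79, 5.13, 5.23 and 5.22 in CO 24 h kidneys and 4.68, 5.25, 5.25 and 4.42 in untreated 24 h kidneys, and 5.37, 5.46, 5.72 and 5.59 in CO 4 h kidneys, 5.85, 5.26, 5.89 and 5.60 in untreated 4 h kidneys, and 5.54 and 5.46 in naive kidneys. The untreated 24 h kidneys lay below the untreated 4 h kidneys (-0.75 ± 0.19, adjusted p = 0.0201), a call lost without the 24 h kidney of donor 5 or the 4 h kidney of donor 3.

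UBE2L3, which serves parkin and the linear chain ligase, read 5.92, 5.90, 5.96 and 5.59 in CO 24 h kidneys and 5.82, 5.88, 5.81 and 5.46 in untreated 24 h kidneys. It read 5.39, 5.69, 5.47 and 5.33 in CO 4 h kidneys, 5.43, 5.31, 5.44 and 5.20 in untreated 4 h kidneys, and 5.55 and 5.72 in naive kidneys. Its changes over naive did not pass (0.21 ± 0.16 in CO 24 h and 0.11 ± 0.16 in untreated 24 h kidneys), but a second, dimmer probe set fell in CO 4 h (-0.72, adjusted p = 0.0398) and untreated 24 h kidneys (-0.86, adjusted p = 0.0150), where the brighter one stood at -0.17 and 0.11, so the probe sets differ, in sign at 24 h. UBE2A, UBE2E2, UBE2J2, UBE2O, UBE2Q1 and UBE2W passed in no comparison, with changes over naive in CO 24 h kidneys of 0.16, 0.14, 0.33, 0.42, 0.08 and -0.34.

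**Figure D4:**
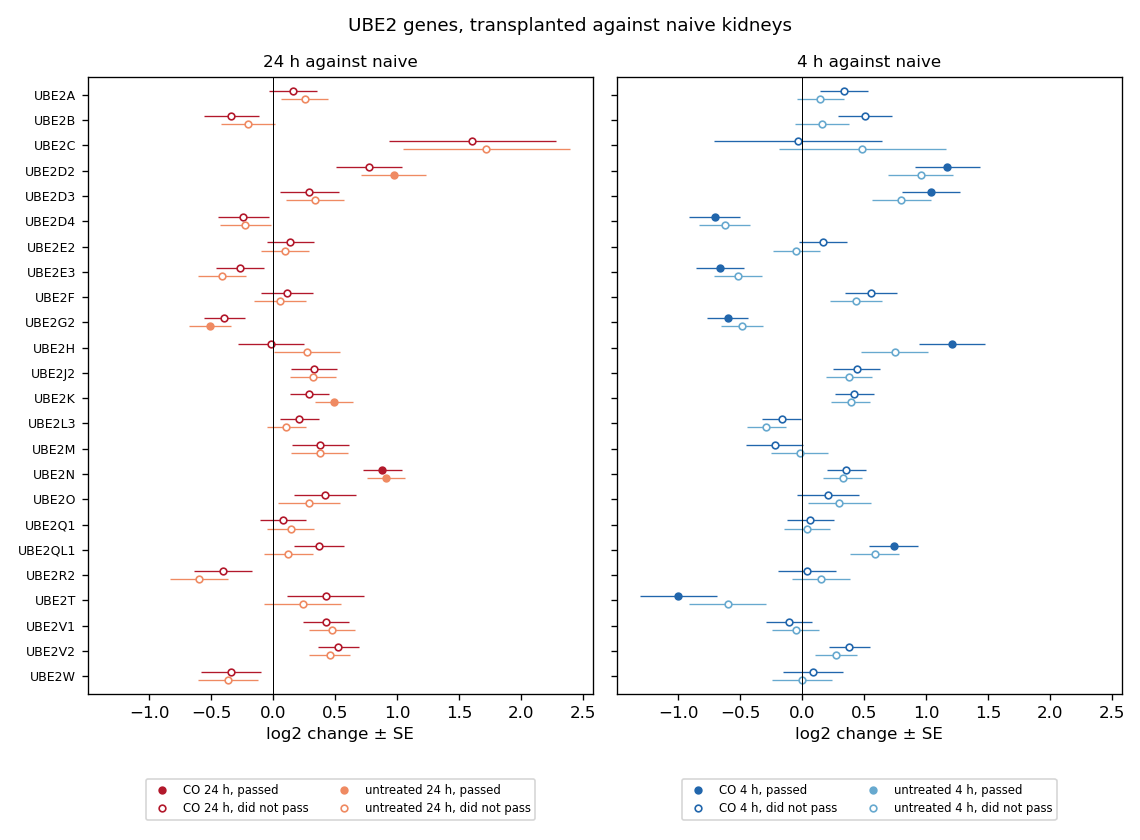
Log2 change of the 24 UBE2 genes against naive kidneys (horizontal axis, points with standard errors) at 24 h (left panel) and 4 h (right panel), CO kidneys in the darker colour and untreated kidneys in the lighter one, filled where the limma adjusted p was under 0.05. Of the CO points 1 is filled at 24 h and 8 at 4 h (4 on each side of 0), and of the untreated points 4 at 24 h and 0 at 4 h.

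Whether CO moved these genes is the question of the paired arms, and no member passed the test. The test and its intervals come from the fit without a donor block, so they do not use the pairing. At 24 h and at 4 h, 0 of 60 members passed between CO and untreated kidneys by limma, as did 0% of all probe sets. By limma's unadjusted p under 0.05, 0 of 60 members differed at either time. Of all 23999 probe sets, 281 at 24 h and 787 at 4 h did. At 24 h the CO minus untreated difference of the 36 proteasome genes ran from -0.22 to 0.23, and the outermost 95% interval bounds were -0.70 and 0.50. At 4 h the differences ran from -0.17 to 0.37 and the bounds were -0.52 and 0.85, or -0.21 to 0.18 and -0.69 and 0.62 without the untreated kidney of donor 1. Each proteasome gene's interval thus lay inside a log2 difference of 1 in either direction at both times, as did 23 of 24 UBE2 intervals at each time. These intervals are for single genes, without adjustment, and real differences inside them remain possible with 4 arrays a group.

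The member of smallest p at 4 h was UBE2H, higher with CO by 0.46 ± 0.22 (adjusted p = 0.999), and at 24 h PSMG3, higher with CO by 0.23 ± 0.12 (adjusted p = 1.000). UBE2H was also the only member whose CO difference at 24 h minus that at 4 h had an unadjusted p under 0.05 (-0.75 ± 0.31, adjusted p = 0.996), and 0 of 60 members and 0% of all probe sets passed for that difference between the times. At 4 h UBE2H read 8.72 with CO and 7.25 untreated in donor 1. In donors 2 to 4 it read 8.15, 8.36 and 8.13 with CO and 7.93, 8.55 and 7.77 untreated. Without donor 1's untreated kidney, 0 members passed at 4 h between CO and untreated kidneys. The UBE2 differences then ran from -0.30 to 0.33, and 0 had an unadjusted p under 0.05 by limma. The UBE2H difference between the times, as given, includes that kidney. Within batches the median CO minus untreated difference of the proteasome genes was 0.00 in batch 3 (24 h, 3 kidneys each), 0.04 in batch 1 (4 h, 3 kidneys each) and 0.06 in batch 2 (4 h, 1 kidney each). The count of calls against naive was 17 in CO 4 h kidneys and 1 in untreated 4 h kidneys, or 17 without donor 1's untreated kidney. With these counts, no difference between the arms passed.

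**Figure D5:**
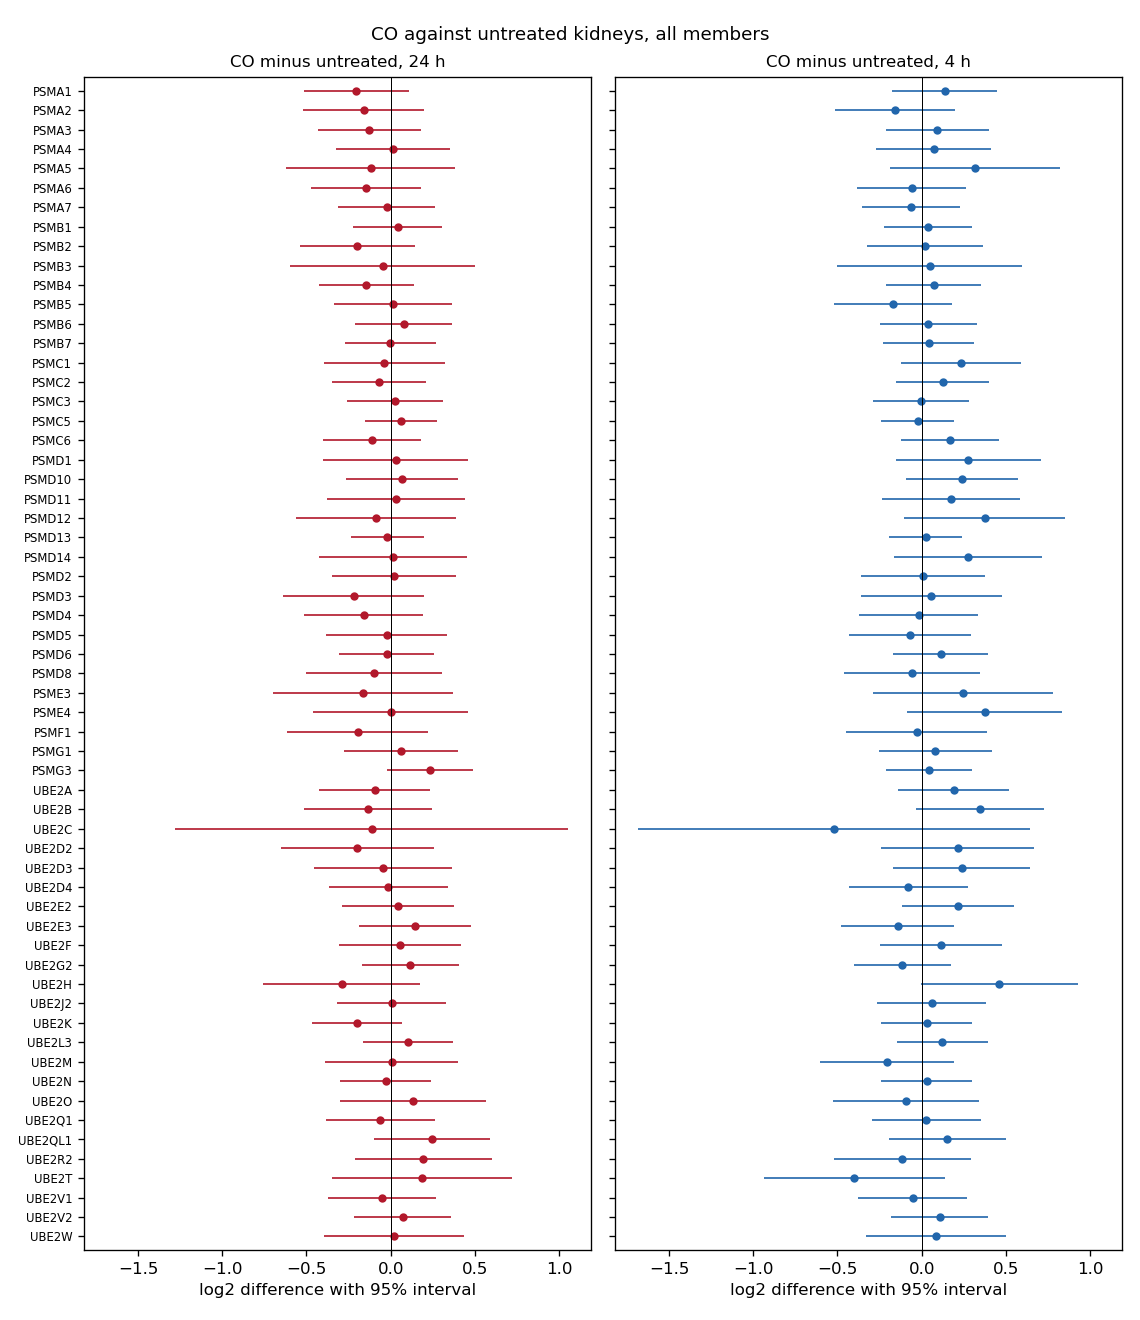
CO minus untreated log2 difference of all 60 members (horizontal axis, points with 95% intervals) at 24 h (left panel) and 4 h (right panel). Every interval includes 0.

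The rest of the pathway was measured in part, and its counts stand beside 11.7% of all probe sets past the threshold in CO 24 h, 14.6% in untreated 24 h and 13.6% in CO 4 h kidneys. In untreated 4 h kidneys that share was 1.50%, or 13.9% without donor 1. Of 11 partners and receptors measured of 26 listed, 2 rose in CO 24 h, 3 in untreated 24 h and 4 in CO 4 h kidneys, where 1 fell. In untreated 4 h kidneys 0 of the 11 passed, and without donor 1 4 rose and 1 fell. SEM1, a small cap subunit, rose by 1.12 in CO 24 h and 1.24 in untreated 24 h kidneys. VCP, the ATPase that extracts ubiquitinated proteins, rose by 0.91 in untreated 24 h and 0.88 in CO 4 h kidneys, and SQSTM1, a receptor that carries ubiquitinated proteins to autophagy, rose by 1.42 in CO 4 h kidneys. PAAF1, which binds free cap ATPases, fell there by 0.55. Of 6 ubiquitin and activating-enzyme genes measured of 12, 2 rose in each 24 h group, the SUMO-activating pair SAE1 (1.29 with CO, 1.14 without) and UBA2 (0.52 and 0.57), and UBB, a ubiquitin gene, rose by 0.61 in CO 4 h kidneys. In untreated 4 h kidneys 0 of these 6 passed, and without donor 1 1 rose.

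Of 16 deubiquitinases measured of 25, 1 rose and 1 fell in each 24 h group. UCHL1, a ubiquitin hydrolase best known from neurons, rose by 3.38 in CO 24 h and 3.74 in untreated 24 h kidneys, and USP2 fell by 2.36 and 2.46. Of 18 ligases measured of 46, 2 rose and 1 fell in CO 24 h kidneys, 1 rose and 1 fell in untreated 24 h kidneys, and 2 rose in CO 4 h kidneys. In untreated 4 h kidneys without donor 1, 1 ligase rose and 0 fell. FBXW7, which marks growth regulators for destruction, rose by 0.80, 0.92 and 1.09 in these groups, and RNF128 fell by 1.44 with CO and 1.50 without at 24 h. Of 10 ubiquitin-like proteins measured of 11, UBD and ISG15, both interferon-responsive, rose in both 24 h groups, UBD by 3.44 and 4.45 and ISG15 by 2.90 and 2.79. Of 5 regulators of proteasome genes measured of 13, STAT3 rose in all 4 transplanted groups (1.16 in CO 24 h, 1.36 in untreated 24 h, 1.58 in CO 4 h and 1.35, or 1.66 without donor 1, in untreated 4 h kidneys) and ZFAND2A, which heat shock is known to induce, by 4.04 in untreated 24 h and 5.61 in CO 4 h kidneys. In CO 24 h and untreated 4 h kidneys only STAT3 passed, although the largest changes of the 5 were 3.46 and 4.06. Without donor 1, 2 of the 5 passed in untreated 4 h kidneys.

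The interferon-inducible subunits replace constitutive ones in the immunoproteasome. Of 4 measured of 5, 3 rose in CO 24 h (PSMB8 2.24, PSMB10 2.31, PSME2 2.28, with PSME1 at 0.80 not past the threshold) and 4 in untreated 24 h kidneys (PSMB8 2.66, PSMB10 2.69, PSME1 0.98, PSME2 2.41), and 0 passed in either 4 h group, also without donor 1. Their difference from the constitutive genes was not tested.

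Other cell types and programmes moved in the same kidneys. Of 14 leukocyte markers measured of 19, 2 rose in CO 24 h and 5 in untreated 24 h kidneys, and the mean leukocyte marker level above naive ran from 0.317 to 2.56 in CO 24 h, 0.625 to 2.51 in untreated 24 h, 0.413 to 0.646 in CO 4 h, 0.835 to 1.98 in untreated 4 h and -0.311 to 0.311 in naive kidneys. Of 8 kidney markers measured of 18, 4 fell in each 24 h group (AQP1, LRP2, MIOX and SLC22A6). Of 17 heat shock genes measured of 19, 16 rose in CO 4 h kidneys (median 2.93), and 1, HSP90AA1, in untreated 4 h kidneys (median 2.12), where 16 rose without donor 1 (median 2.89). In CO 24 h against CO 4 h kidneys 14 fell, of which 13 were among the 16. The adrenal and fat lists had 0 genes past the threshold in any comparison with naive. The RNA 3′ to 5′ difference of the GAPDH control, a sign of RNA quality, was 1.14 to 2.28 in CO 24 h, 1.29 to 1.91 in untreated 24 h, 1.04 to 1.54 in CO 4 h, 0.911 to 1.54 in untreated 4 h and 1.03 and 1.33 in naive kidneys. The part of these shifts in the member results was not tested.

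The comparisons with naive rest on 2 arrays. For most 24 h calls over naive described above, the losses given name transplanted kidneys only. Without naive 1 the count of members past the threshold was 6 in CO 24 h, 12 in untreated 24 h and 0 in CO 4 h kidneys, and without naive 2 it was 13, 17 and 0, against 27, 32 and 17 with both. Without the CO 4 h kidney of donor 1 or 3 the CO 4 h count was 7 or 9. Batch moves with time, since 7 of 8 kidneys at 24 h lie in batches that hold no naive or 4 h kidney. With batch as a block 0 members passed in CO 24 h and 1 in untreated 24 h kidneys against naive, with proteasome medians of 0.92 and 0.91 and median standard errors of 0.345 and 0.290, against 0.198 without the block. Within batch 2, which holds 1 array of each of 4 groups, the untreated 24 h kidney of donor 5 was above naive 2 in 35 of 36 proteasome genes (median 1.02) and above the untreated 4 h kidney of donor 2 in 34 of 36 (median 0.57). With the block, 0 members passed between 24 h and 4 h in either arm. At 4 h the CO kidneys were above naive in 26 of 36 proteasome genes within batch 1 (median 0.32) and in 30 of 36 within batch 2 (median 0.36), and the untreated kidneys in 29 of 36 within each (medians 0.25 and 0.28). The values within batch 2 have no replicate.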

How the data were processed

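Kidney RNA was measured on 18 arrays, 1 per kidney. The deposited values are log2 levels per probe set, which the authors made with RMA, per the submitters' processing notes (version and settings are not given in the sources used here). The table holds 24123 probe sets. All but the 124 controls entered the tests (23999), dim ones included. Among these, 10069 carry a single symbol in the platform annotation, 198 carry several and 13732 carry none.

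Two-sided limma tests (version 3.58.1, R 4.3.3; lmFit, then eBayes) used a single fit of the 5 groups without a block. The p-values were adjusted by Benjamini-Hochberg over all probe sets, with 0.05 as the threshold. Errors after ± are limma's standard errors, and 95% intervals use its moderated variance. Values in every array are given for 34 members, by rule: in each comparison and family up to 4 rises and 3 falls of largest change among those past the threshold, or else the member of smallest p, plus a list of members of known role. Other genes come from lists, with at most 3 named per list and comparison. The kidney markers and the interferon-inducible subunits, of which 4 were named, are the exceptions. The members and lists were chosen with earlier results of these data known. Role-group levels are means of log2 values above the naive mean.

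Each donor number marks 1 animal with a CO and an untreated kidney, per the labels, so the numbers pair those arms. After group means were removed, 6 of 8 pairs correlated over 0.1 (range -0.20 to 0.57). Numbers in the naive arrays' file names recur in those of donor 4, so animals may be shared, which the tests ignore.

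Alternatives were an intensity trend, a filter on dim probe sets, centring on array medians, array weights, batch or donor as a block (statmod 1.5.0), fewer groups in the fit, the mean of a gene's probe sets, and leaving out each array. The fit was tested on simulated data. A planned search of promoters for motifs was not run, and no sequence or genome position was used here. Python 3.11.15 with matplotlib 3.10.9 drew the figures.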

Additional observations from a re-analysis of the deposited data

Results flagged for a closer look

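In groups of 4 arrays, the highest or lowest array was set against the others by Dixon's ratio at its 95% critical value. Chance flags about 1 in 20 groups, and 16 of 164 groups tested were past it. No explanation was tested for these.

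The untreated 4 h kidney of donor 1 was the low array of its group in 4 cases. Its mean level of the outer core ring was 0.01 above naive, against 0.29 to 0.32 in the other 3, PSMA1 read 7.13 (others 7.61 to 7.65), PSMB3 read 4.72 (others 5.47 to 5.58) and PSME3 read 4.87 (others 5.89 to 6.09).

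The CO 24 h kidney of donor 5 stood apart in 5 genes. It was highest in PSMD12 (7.67, others 7.21 to 7.27), PSMD14 (8.75, others 8.20 to 8.25), UBE2K (6.62, others 6.18 to 6.20) and UBE2T (5.37, others 4.16 to 4.33), and lowest in PSMD11 (8.74, others 8.92 to 8.94).

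Both kidneys of donor 8 were low. In CO 24 h kidneys donor 8 was lowest in PSMB2 (8.98, others 9.49 to 9.58) and UBE2L3 (5.59, others 5.90 to 5.96). In untreated 24 h kidneys it was lowest in UBE2L3 (5.46, others 5.81 to 5.88), in the mean of the outer core ring (0.84 above naive, others 1.13 to 1.17) and in the mean of the UBE2 genes (-0.01 relative to naive, others 0.28 to 0.32).

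The CO 24 h kidney of donor 7 was highest in UBE2V1 (8.50, others 8.13 to 8.18), and the CO 4 h kidney of donor 2 was highest in the mean of the outer core ring (0.40 above naive, others 0.21 to 0.24).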

How the results depend on the processing

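Counts of members past the limma threshold changed as follows. With batch as a block they were 0 in CO 24 h, 1 in untreated 24 h and 0 in untreated 4 h kidneys against naive, and 0 between 24 h and 4 h in each arm, against 27, 32, 1, 27 (CO) and 19 (untreated) without it. With array weights they were 29 in CO 4 h and 19 in untreated 4 h kidneys against naive and 32 between the untreated times, against 17, 1 and 19. In untreated 4 h kidneys against naive the count of 1 became 0 with donor as a replicate block, 0 with an intensity trend, 0 in a fit limited to the compared groups and 2 with the mean of a gene's probe sets. In such a limited fit the CO 4 h count was 11 in place of 17. The replicate block moved no other count past 1.5 times.

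Leaving out 1 array gave counts of 6 to 29 in CO 24 h, 12 to 36 in untreated 24 h, 0 to 16 in CO 4 h and 0 to 17 in untreated 4 h kidneys against naive, 19 to 28 between the CO times, 15 to 22 between the untreated times, and 0 for CO against untreated at either time and between times. No change of a named member that had passed turned its direction under these alternatives. Of 123 such changes, 110 missed the threshold with batch as a block, 28 in the limited fits, 18 after centring on array medians, 9 with the mean of a gene's probe sets, 8 with an intensity trend, 3 with donor as a block, 3 without dim probe sets and 0 with array weights. The cause of these losses was not tested, and batch moves with time. Small differences between CO and untreated kidneys, and the comparisons with 2 naive arrays, are limited by the number of arrays.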
